A study of Mus musculus with 4 samples.

Results

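The 10 genes described here were listed by name as ER chaperone genes of the unfolded protein response (*Hspa5*, *Hsp90b1*, *Pdia4*, *Sdf2l1*, *Manf*, *Creld2*, *Dnajb9*, *Xbp1*, *Herpud1* and *Dnajc3*), and were taken from the 23420 gene symbols counted in mouse prefrontal cortex (PFC) by RNA-seq. All 10 were among the 16232 genes that passed the filter on low counts. The name of the list holds for most but not all of its genes, since *Xbp1* encodes a transcription factor and *Herpud1* a membrane protein of ER-associated degradation. The unfolded protein response is the program by which a cell adjusts the folding capacity of its endoplasmic reticulum (ER). The ER membrane sensors IRE1, PERK and ATF6 respond to unfolded protein and act through the transcription factors XBP1, ATF4 and cleaved ATF6. Of these, mainly XBP1 and cleaved ATF6 raise the transcription of ER chaperones. Neurons rely on this machinery to fold receptors, channels and secreted proteins, and prolonged activation is a known feature of brain injury.

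To find out what *Ash1L* knockdown did to PFC transcripts, the study compared 2 control samples with 2 *Ash1L* shRNA samples from C57BL6/J mice. By the labels, controls had received a GFP-AAV9, a virus that the paper calls scrambled shRNA AAV, and the knockdown mice an AAV9 carrying an shRNA against *Ash1L*, which a U6 promoter drives in any transduced cell. All mice were thus injected wild-type animals, aged 6 to 8 weeks by the series' description and 5 weeks at injection by the paper, and by the paper each sample pooled tissue from 3 mice, where the series' description counts 3 knockdown and 2 control animals. Total counts were 14251190 and 35764874 in control samples 1 and 2, and 27479339 and 20106708 in *Ash1L* shRNA samples 1 and 2. *Ash1l*, the targeted gene, had 245 and 290 CPM (counts divided by scaled library size) in the controls and 216 and 138 in the *Ash1L* shRNA samples, so both lay below both controls, and sample 1 fell the less. Its log2 fold change was -0.6 (standard error 0.22). In edgeR's quasi-likelihood test the unadjusted p was 0.0362 and the Benjamini-Hochberg adjusted p was 0.275. Of all genes tested, 26.8% likewise lay below both controls in both *Ash1L* shRNA samples. Neuronal markers of the labelled tissue were abundant in all samples, among them *Slc17a7*, the vesicular glutamate transporter of cortical excitatory neurons, at 754 to 1069 CPM. Since each sample is bulk tissue, fewer cells of a type and less RNA per cell cannot be told apart in any result here.

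A set of promoters is printed first, because several of the 10 genes share a sequence feature. They were listed as genes of the unfolded protein response, and the feature is an element of that same response. A higher share with it than over all windows is therefore no independent support for the list. The ER stress response element (ERSE, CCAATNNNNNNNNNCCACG) is the site through which ATF6, together with the CCAAT-binding factor NF-Y, is known to act, and a shorter variant is called ERSE-II (ATTGGNCCACG). RefSeq promoter windows (GRCm38.p6, from 250 bases before to 50 bases after the gene start) were matched for 9 of the 10 genes, all but *Manf*. On either strand, ERSE was found in 4 of the 9, against 0.119% of all 32851 promoter windows, and ERSE-II in 1 of the 9, against 0.0365% of windows. The UPRE sequence bound by XBP1 (TGACGTGG) was found in 0 of the 9 and in 0.676% of all windows. Only the exact letters of each motif were searched, so variants and near matches were not counted. No match shares bases with another. The lines below give the 250 bases before the RefSeq start, 5′ to 3′ on the strand of the gene, with ERSE and ERSE-II matches in capitals. They show the gene with the clearest difference between groups (*Hspa5*), the other gene called UP, which holds no match (*Sdf2l1*), and genes with a match that were not called (*Hsp90b1*, *Creld2* and *Herpud1*).
*Hspa5*, chr2:34771840-34772089, plus strand: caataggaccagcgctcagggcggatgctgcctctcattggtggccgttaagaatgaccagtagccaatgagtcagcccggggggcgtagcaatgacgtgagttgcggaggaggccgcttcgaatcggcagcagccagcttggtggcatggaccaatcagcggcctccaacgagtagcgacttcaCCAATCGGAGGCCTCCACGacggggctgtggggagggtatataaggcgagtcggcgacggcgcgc
*Sdf2l1*, chr16:17132384-17132633, minus strand: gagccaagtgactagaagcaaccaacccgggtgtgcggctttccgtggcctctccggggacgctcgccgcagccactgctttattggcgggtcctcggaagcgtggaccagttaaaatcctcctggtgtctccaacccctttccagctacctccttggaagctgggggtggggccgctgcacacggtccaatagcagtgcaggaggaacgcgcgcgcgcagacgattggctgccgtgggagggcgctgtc
*Hsp90b1*, chr10:86705445-86705694, minus strand: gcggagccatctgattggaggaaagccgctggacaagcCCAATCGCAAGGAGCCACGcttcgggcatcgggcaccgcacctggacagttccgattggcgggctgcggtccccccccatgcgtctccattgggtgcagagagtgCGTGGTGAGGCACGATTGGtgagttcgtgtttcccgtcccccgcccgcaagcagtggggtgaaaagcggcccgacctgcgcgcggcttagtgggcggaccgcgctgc
*Creld2*, chr15:88819396-88819645, plus strand: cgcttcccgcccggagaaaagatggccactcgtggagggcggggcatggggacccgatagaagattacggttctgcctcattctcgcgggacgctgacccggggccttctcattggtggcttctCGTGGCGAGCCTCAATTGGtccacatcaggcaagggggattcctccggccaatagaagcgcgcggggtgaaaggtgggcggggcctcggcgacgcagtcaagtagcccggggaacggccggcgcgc
*Herpud1*, chr8:94386179-94386428, plus strand: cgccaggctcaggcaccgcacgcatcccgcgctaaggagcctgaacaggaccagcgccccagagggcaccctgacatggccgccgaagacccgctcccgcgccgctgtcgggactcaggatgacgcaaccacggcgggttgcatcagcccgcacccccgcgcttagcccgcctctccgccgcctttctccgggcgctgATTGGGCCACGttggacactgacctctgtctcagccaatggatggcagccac

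The exact ERSE match of *Hspa5* spans bases -65 to -47 before the start, and that of *Dnajc3* bases -105 to -87. *Hsp90b1* holds 2 exact matches, at -212 to -194 and, on the opposite strand, at -107 to -89. In *Creld2*, the match lies on the opposite strand at -126 to -108, and *Herpud1* holds its ERSE-II at -52 to -42. The windows of *Sdf2l1*, *Pdia4*, *Dnajb9* and *Xbp1* held none of these exact letters, which says only that. Starts in GENCODE can differ from those in RefSeq, so distances apply to the RefSeq start.

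**Figure D1:**
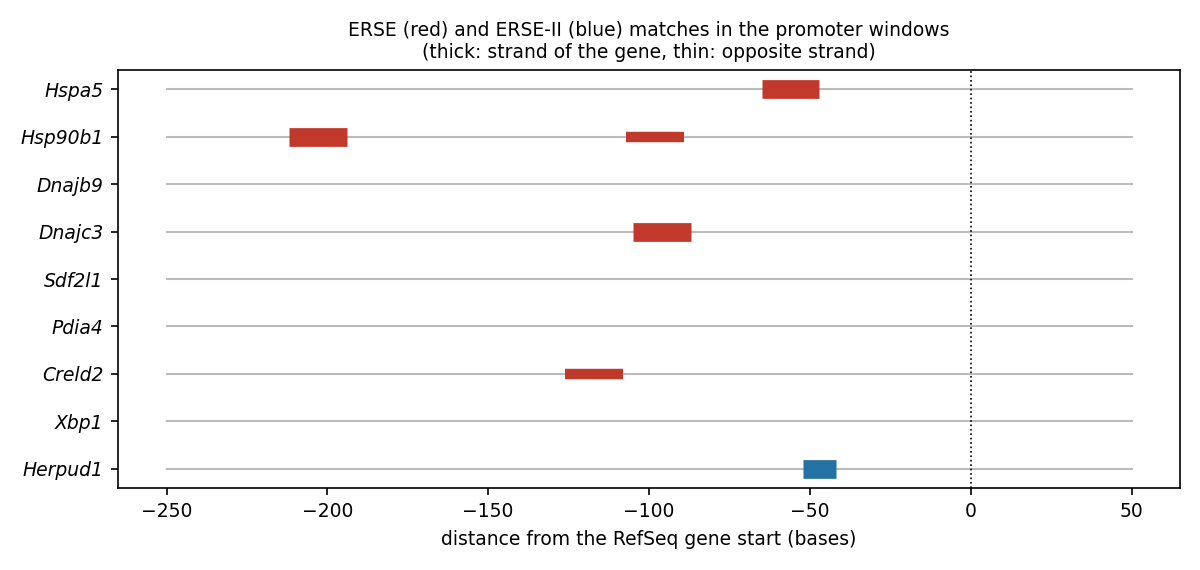
Position of exact ERSE (red) and ERSE-II (blue) matches in the promoter windows of 9 genes. The x axis is the distance from the RefSeq start in bases and each line is 1 gene. ERSE matches lie in *Hspa5*, *Hsp90b1*, *Dnajc3* and *Creld2*.

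In *Ash1L* shRNA samples, 2 of the 10 genes were higher at the limits used in the study, an unadjusted P under 0.05 and at least a 1.2-fold change (UP): *Hspa5* and *Sdf2l1*. None of the 10 was lower at these limits (DOWN). Over all genes tested, 8.61% were UP and 8.28% were DOWN, the background against which 2 and 0 of 10 are to be read. No gene of the 10 passed a Benjamini-Hochberg adjusted p of 0.05 in edgeR's quasi-likelihood test, a limit that 0.00616% of all genes tested passed. At an unadjusted p under 0.05, 2 genes passed in edgeR and 2 in DESeq2, in which the lowest adjusted p of the list was 0.061. The median log2 fold change of the 10 genes was 0.02, against 0 over all genes tested, with a range from -0.25 in *Pdia4* to 0.54 in *Sdf2l1*. Both *Ash1L* shRNA samples lay above both controls for *Hspa5*, *Hsp90b1*, *Sdf2l1* and *Dnajc3*, and below both for *Pdia4*. Such separation was seen upward in 26.5% and downward in 26.8% of all genes tested. A permutation of 2 samples against 2 cannot give an exact two-sided p below 0.333.

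**Figure D2:**
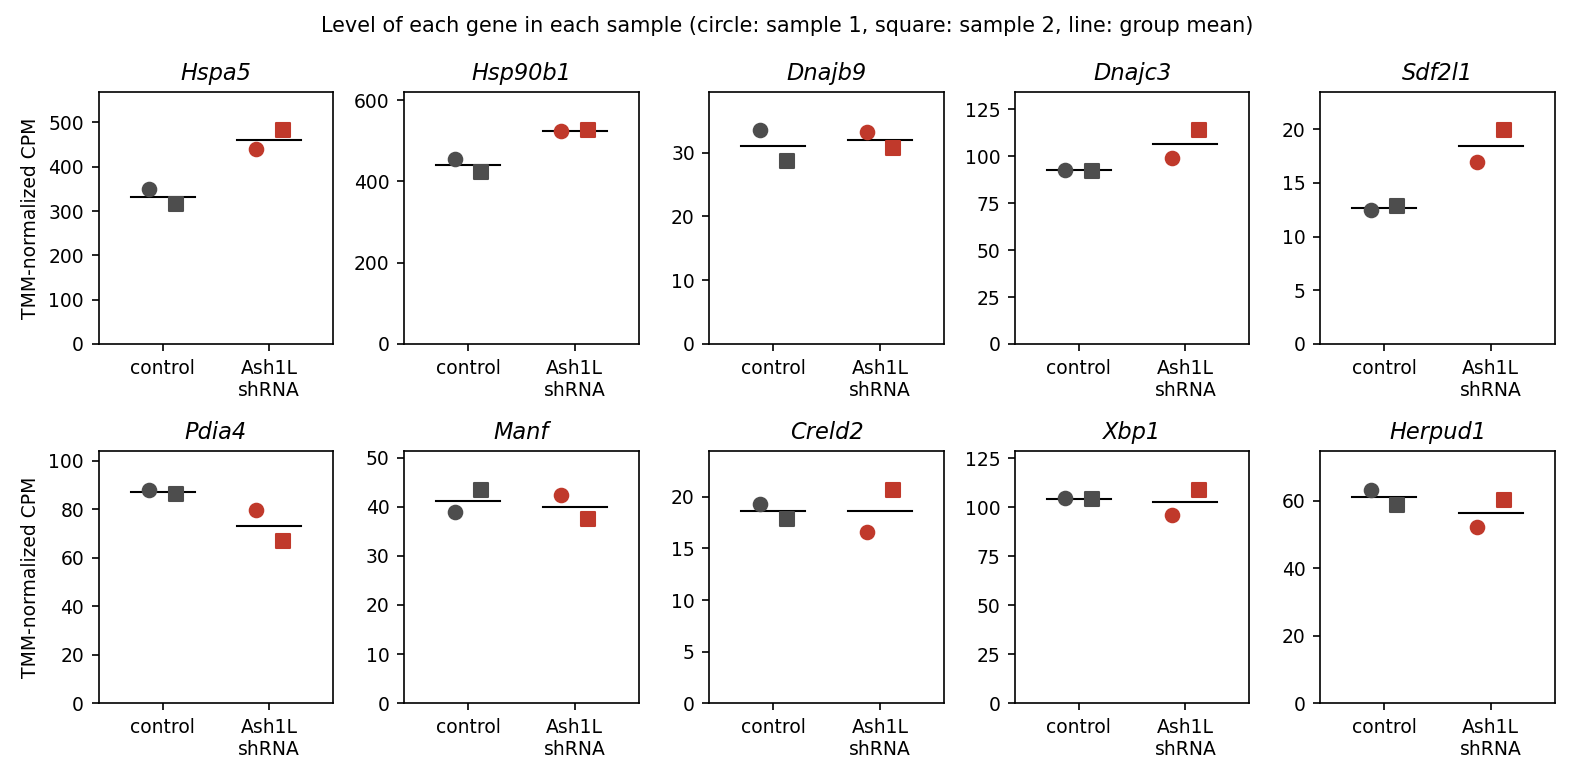
Normalized level of each of the 10 genes in each sample. The y axis is CPM after TMM scaling, starting at 0, circles are samples 1, squares samples 2, and lines group means. *Hspa5* and *Sdf2l1* show *Ash1L* shRNA samples above both controls, while *Manf*, *Creld2*, *Dnajb9*, *Xbp1* and *Herpud1* overlap.

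*Hspa5* (ENSMUSG00000026864, chromosome 2 from 34771970 to 34777547 on the plus strand, mm10) encodes BiP, the ER Hsp70 that binds unfolded chains and holds the sensors inactive. Its raw counts were 4938 and 11068 in control samples 1 and 2, and 12051 and 9988 in *Ash1L* shRNA samples 1 and 2. After normalization these were 350 and 316 CPM in controls, and 440 and 482 CPM in *Ash1L* shRNA samples. Both *Ash1L* shRNA samples were above both controls, with sample 2 the highest. The means were 333 ± 24.3 and 461 ± 29.6 CPM (SD, n = 2), a 1.39-fold difference with a log2 fold change of 0.47 (standard error 0.12, 95% confidence interval 0.18 to 0.76). The unadjusted p was 0.00707 and the adjusted p was 0.253 (edgeR's quasi-likelihood test). The log2 difference ran from 0.33 to 0.61 over the 4 pairings of an *Ash1L* shRNA with a control sample.

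*Hsp90b1* (ENSMUSG00000020048, chromosome 10 from 86690209 to 86705509 on the minus strand) encodes GRP94, the ER Hsp90 that folds integrins and Toll-like receptors. It measured 456 and 424 CPM in the controls and 523 and 525 CPM in the *Ash1L* shRNA samples. The groups did not overlap, and the 2 *Ash1L* shRNA samples were nearly equal. The log2 fold change of 0.25 (standard error 0.11, interval -0.02 to 0.52) missed the limits, with an unadjusted p of 0.0611 and an adjusted p of 0.315 in edgeR's test. It was called UP under upper-quartile scaling and with library size only. Another annotated gene on the opposite strand, a transcribed pseudogene, covers 10.3% of its exonic bases, and the strand setting of the counting is not given in the sources used here.

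Neither J-domain partner of BiP among the 10 genes was called. *Dnajc3* (chromosome 14, ENSMUSG00000022136), which encodes the co-chaperone p58IPK, an inhibitor of PERK, had 92.9 and 92.1 CPM in controls and 99.0 and 114 CPM in *Ash1L* shRNA samples. The groups were separated, but *Ash1L* shRNA sample 1 was only 0.09 to 0.10 above the controls on the log2 scale, giving an estimate of 0.20 for the log2 fold change (interval -0.09 to 0.49). *Dnajb9* (chromosome 12, ENSMUSG00000014905), which encodes ERdj4, a J protein known to help BiP repress IRE1, had 33.5 and 28.7 CPM in controls and 33.3 and 30.7 CPM in *Ash1L* shRNA samples. Its groups overlapped, and its log2 fold change of 0.05 had an interval of -0.29 to 0.39.

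*Sdf2l1* (ENSMUSG00000022769, chromosome 16 from 17130138 to 17132383 on the minus strand) encodes an ER protein that acts with J proteins in the BiP cycle. It is the least abundant of the 10 genes, with raw counts of 176 and 451 in controls and 463 and 412 in *Ash1L* shRNA samples. The count of 176 has an exact Poisson 95% interval of 151 to 204, which covers counting error only. Normalized, the controls had 12.5 and 12.9 CPM and the *Ash1L* shRNA samples 16.9 and 19.9 CPM, again with sample 2 highest and no overlap. The means were 12.7 ± 0.27 and 18.4 ± 2.10 CPM (SD, n = 2), a 1.45-fold difference with a log2 fold change of 0.54 (standard error 0.16, interval 0.14 to 0.93). The unadjusted p was 0.016 and the adjusted p 0.26 in edgeR's test. Its paralog *Sdf2* had 43.4 and 46.1 CPM in controls and 48.4 and 49.2 CPM in *Ash1L* shRNA samples (log2 fold change 0.12, interval -0.16 to 0.40.) Whether the 2 paralogs differ in response was not tested.

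The UP calls depended on the libraries. With control sample 2 left out, neither *Hspa5* nor *Sdf2l1* was called, and without control sample 1 only *Hspa5* was, although the log2 fold changes stayed at 0.39 to 0.56 for *Hspa5* and 0.42 to 0.64 for *Sdf2l1* over the 4 left-out samples. Without *Ash1L* shRNA sample 1, the sample in which *Ash1l* fell less, both had an adjusted p under 0.05 (0.029 for *Hspa5* and 0.0437 for *Sdf2l1*, edgeR's quasi-likelihood test), *Dnajc3* was called UP as well, and *Pdia4* was DOWN. In that fit 2502 genes in all passed the adjusted limit, 2368 were UP and 2718 DOWN. Over all alternatives the adjusted p ran from 0.029 to 0.87 for *Hspa5* and from 0.0437 to 0.87 for *Sdf2l1*. Each such fit leaves 1 sample in a group and assumes that it varies like the other group. Whether the degree of *Ash1l* knockdown has a part in these differences was not tested.

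*Pdia4* (ENSMUSG00000025823, chromosome 6 from 47796141 to 47813430 on the minus strand) encodes ERp72, a protein disulfide isomerase. It was the only 1 of the 10 genes with both *Ash1L* shRNA samples below both controls, with 88.0 and 86.1 CPM in controls and 79.5 and 66.7 CPM in *Ash1L* shRNA samples 1 and 2. Its log2 fold change, -0.25 (standard error 0.13, interval -0.56 to 0.06), was not called, with an unadjusted p of 0.0923 and an adjusted p of 0.355 in edgeR's test. Sample 2 lay 0.38 below the control mean on the log2 scale and sample 1 lay 0.13 below it.

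*Manf* and *Creld2* encode ER stress-inducible proteins that can also be secreted, and MANF is known to protect neurons. *Manf* (chromosome 9, ENSMUSG00000032575) had 38.9 and 43.5 CPM in controls and 42.4 and 37.5 CPM in *Ash1L* shRNA samples, which interleave, and genes on the opposite strand (*Dcaf1* and *4930524O07Rik*) share 4.14% and 4.71% of its exonic bases. Its log2 fold change was -0.04 with an interval of -0.37 to 0.28. *Creld2* (chromosome 15, ENSMUSG00000023272) had 19.3 and 17.9 CPM in controls and 16.6 and 20.7 CPM in *Ash1L* shRNA samples, so the *Ash1L* shRNA samples lay on either side of the controls. Its log2 fold change was 0.00 with an interval of -0.40 to 0.41, which covers a 1.33-fold rise and a fall to 0.76 of control. Among their paralogs, *Creld1* had a log2 fold change of 0.21 (interval -0.19 to 0.61), and *Cdnf*, a low gene at 2.45 CPM in controls, one of 0.77 (interval -0.12 to 1.65).

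*Xbp1* (chromosome 11 from 5520659 to 5525893 on the plus strand, ENSMUSG00000020484) encodes the transcription factor whose mRNA IRE1 splices to an active form. The gene had 105 and 104 CPM in controls and 96.2 and 109 CPM in *Ash1L* shRNA samples, with the controls nearly equal and between the *Ash1L* shRNA samples. Its log2 fold change was -0.03 (interval -0.31 to 0.26). Counts per gene do not separate spliced from unspliced *Xbp1*, so IRE1 activity was not measured. *Herpud1* (chromosome 8, ENSMUSG00000031770), which encodes an adaptor of the HRD1 ubiquitin ligase, had 63.3 and 58.8 CPM in controls and 52.3 and 60.3 CPM in *Ash1L* shRNA samples, which overlap. Its log2 fold change was -0.12 (interval -0.42 to 0.19), and that of its paralog *Herpud2* was -0.06 (interval -0.38 to 0.25). For the 5 genes with overlapping groups, the lower and upper ends of the intervals lay between -0.42 and 0.41.

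**Figure D3:**
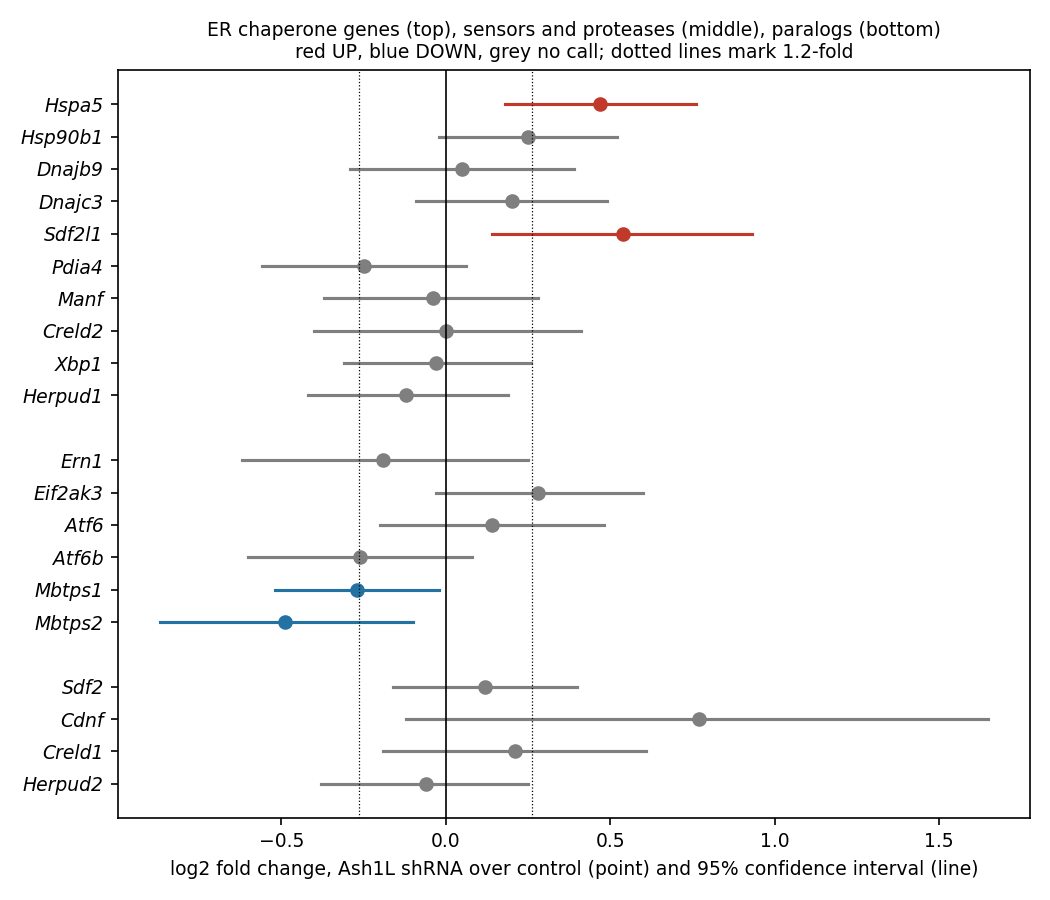
Log2 fold change of *Ash1L* shRNA over control samples for the 10 genes (top), 6 sensor and protease genes (middle) and 4 paralogs (bottom). Points are estimates, lines 95% confidence intervals, dotted lines mark 1.2-fold. *Hspa5* and *Sdf2l1* are the UP genes, and *Mbtps1* and *Mbtps2* the DOWN genes.

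Per length, the 10 genes spanned an order of abundance headed by the large chaperones. Dividing the mean control CPM by exonic length (kilobases of all annotated exons) gave 109 per kilobase for *Hsp90b1* and 78.7 for *Hspa5*, followed by 36.3 for *Pdia4*, 32.1 for *Xbp1* and 26.2 for *Herpud1*. *Dnajc3* had 18.0, and *Creld2*, *Dnajb9*, *Manf* and *Sdf2l1* lay together between 11.4 and 13.6. In *Ash1L* shRNA samples, *Hsp90b1* and *Hspa5* stood at 130 and 109 per kilobase. The transcripts in use are not known from these counts, so the lengths are approximate. Summed over the 10 genes, the level was 1259 and 1184 CPM in controls and 1399 and 1466 CPM in *Ash1L* shRNA samples 1 and 2, and *Hsp90b1* and *Hspa5* make up most of that sum.

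The sensor genes upstream of these genes did not share a direction, while both protease genes were DOWN. Of 6 genes for sensors and the proteases that cleave ATF6, 0 were UP, 2 were DOWN and 4 were not called. The median log2 fold change of the 6 was -0.22. In 4 of them both *Ash1L* shRNA samples lay below both controls, and in 1 above both. Over all genes tested, these shares were 26.8% and 26.5%. *Eif2ak3*, which encodes PERK, had 51.7 and 44.6 CPM in controls and 61.1 and 56.0 CPM in *Ash1L* shRNA samples (log2 fold change 0.28, interval -0.03 to 0.60). *Ern1*, which encodes IRE1, had a log2 fold change of -0.19 (interval -0.62 to 0.25), *Atf6* one of 0.14 (interval -0.20 to 0.48) and *Atf6b* one of -0.26 (interval -0.60 to 0.08). *Mbtps2*, which encodes the site-2 protease, fell from 28.55 and 32.95 CPM to 24.1 and 19.8 CPM, with a log2 fold change of -0.49 and an adjusted p of 0.26 in edgeR's test. *Mbtps1*, the site-1 protease gene, had 96.8 and 96.1 CPM in controls and 80.8 and 79.4 CPM in *Ash1L* shRNA samples. Its log2 fold change of -0.27 lay at the 1.2-fold limit, and the call was lost in 10 of 13 alternatives.

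Of 20 other ER folding genes, 2 were UP, 2 were DOWN and 16 were not called, with a median log2 fold change of 0.08. The UP genes were *Ero1l* (0.53), an oxidase that recharges protein disulfide isomerases, and *P4hb* (0.31), the best-known isomerase. The DOWN genes were *Txndc5* (-0.56) and *Ero1lb* (-0.39). The lectin chaperone genes *Canx* and *Calr* had log2 fold changes of 0.08 and 0.07, *Hyou1*, a nucleotide exchange factor of BiP, had 0.21, and *Uggt1*, which senses misfolded glycoproteins, had 0.29. None of these last 4 was called. The ERSE was also found in the windows of *Calr*, *Canx* and *Pdia6*, 3 of the 14 genes of this list with a window, and none of those 3 was called. *Dnajb11*, an ER J protein gene that was not called either, held an ERSE-II, and the UPRE was found in *Txndc5*, which was DOWN, and in *Txndc11*, which was not called.

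Of 17 genes of ER-associated degradation, 3 were UP (*Edem3*, *Ube2j1* and *Ufd1l*), 4 were DOWN (among them *Derl3*, *Os9* and *Nploc4*) and 10 were not called. *Ube2j1*, a ubiquitin-conjugating enzyme of the ER membrane, had a log2 fold change of 0.40 (interval 0.12 to 0.69). *Sel1l*, the partner of HRD1, had -0.13 and the extracting ATPase *Vcp* had -0.05, and neither was called. In this list ERSE was found in 2 of the 11 windows, those of *Derl3* (DOWN, -1.06) and *Syvn1* (not called, -0.13), and the UPRE in those of *Ube2j1* (UP) and *Vcp*. None of the 3 motifs was found in the windows of the sensors, paralogs, translocation, PERK arm or heat shock lists. Of 14 genes for translocation into the ER and signal peptide cleavage, 1 was UP (*Sec61g*, 0.47), 0 were DOWN and 13 were not called. The most abundant of them, *Sec62*, *Ssr1*, *Ssr3* and *Sec63*, had log2 fold changes from -0.17 to 0.14.

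In the PERK arm, whose transcription factor ATF4 acts on amino acid and redox genes, 6 of 8 genes were UP and 0 were DOWN. Over all genes tested, 8.61% were UP and 8.28% were DOWN. The median log2 fold change of the 8 genes was 0.65. *Atf4* had 95.8 and 97.9 CPM in controls and 128 and 157 CPM in *Ash1L* shRNA samples (log2 fold change 0.56, standard error 0.14, interval 0.23 to 0.89). Both *Ash1L* shRNA samples lay above both controls, as they did for 26.5% of all genes tested. The same held for *Asns*, the asparagine synthetase gene (0.35), and for *Ppp1r15a*, whose product GADD34 reverses the translation block (1.06, interval 0.31 to 1.81). *Ppp1r15a* was uneven, with sample 1 0.55 and sample 2 1.43 above the control mean on the log2 scale. *Trib3*, *Chac1* and *Nupr1* were the other UP genes. *Trib3* had the largest log2 fold change of the arm (1.77) but raw counts of only 8 and 20 in control samples 1 and 2. It dropped out where at least 10 counts in every sample were required. *Sesn2* was not called (log2 fold change 0.00, interval -0.69 to 0.68). *Ddit3*, which encodes the stress factor CHOP, had 23.09 and 24.97 CPM in controls and 26.25 and 22 CPM in *Ash1L* shRNA samples (log2 fold change 0.00, interval -0.36 to 0.37). No gene of the arm passed an adjusted p of 0.05 in edgeR's test, and ATF4 is also reached by kinases outside the ER. Beyond the ER, 2 of 10 cytosolic and mitochondrial heat shock genes were UP, *Hspa1a* and *Hspd1*, 0 were DOWN and 8 were not called. The 4 most abundant, *Hspa8*, *Hsp90ab1*, *Hsp90aa1* and *Hsph1*, had log2 fold changes of 0.10, -0.14, -0.05 and 0.39. *Hspa1a* was low and uneven, at 5.03 and 2.11 CPM in controls and 7.34 and 17.7 CPM in *Ash1L* shRNA samples 1 and 2. Whether the 10 ER chaperone genes differ from the PERK arm or from any other list was not tested.

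**Figure D4:**
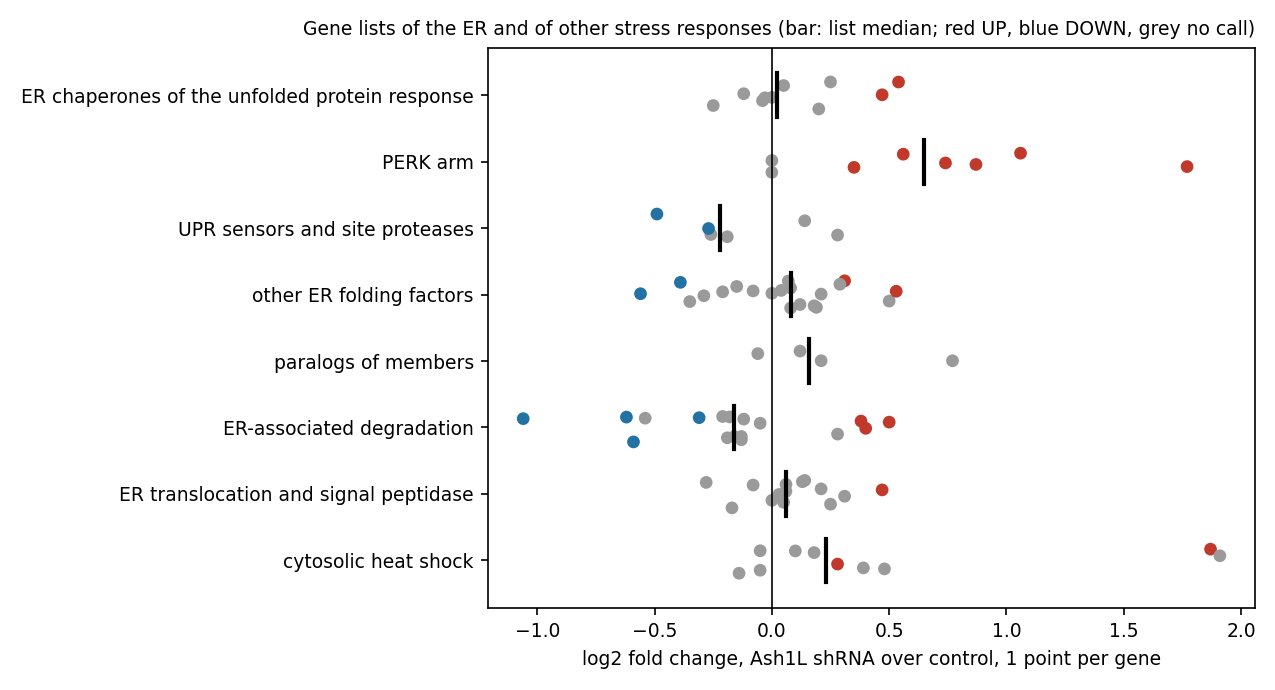
Log2 fold change of every tested gene in 8 gene lists. Each point is 1 gene, red UP, blue DOWN and grey not called, and black bars are list medians. The ER chaperone list centres near 0 (median 0.02), and the PERK arm lies to the right (median 0.65).

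Markers of other cell types differed between the groups at the same time. All 8 measured B and plasma cell markers lay below both controls in each *Ash1L* shRNA sample, as did 26.8% of all genes tested. Their summed level was 164 and 163 CPM in controls against 27.0 and 1.83 CPM in *Ash1L* shRNA samples 1 and 2. Most of that sum was *Jchain* (listed as *Igj*), at 143 and 134 CPM in controls and 23.4 and 0.72 CPM in *Ash1L* shRNA samples. The other 2 listed markers, *Igkc* and *Ighm*, were not analysed here. Plasma cells are secretory cells rich in ER. All 5 T cell markers were lower too, with sums of 9.28 and 15.6 CPM against 3.36 and 2.65 CPM. These are low levels, and *Cd3d*, for example, had raw counts of 10 and 93 in controls and 7 and 2 in *Ash1L* shRNA samples. Of 7 astrocyte markers, 5 were DOWN, with sums of 5364 and 5680 CPM in controls and 4330 and 3211 CPM in *Ash1L* shRNA samples. Most of that sum was *Slc1a2*, at 3159 and 3467 CPM in controls and 2757 and 2013 CPM in *Ash1L* shRNA samples. The 2 astrocyte markers not called, *Gfap* and *Aqp4*, had log2 fold changes of 0.00 and 0.11. The 6 microglia markers summed to 579 and 596 CPM in controls but 696 and 298 CPM in *Ash1L* shRNA samples 1 and 2, while the 6 excitatory neuron markers summed to 2753 and 3234 against 2538 and 2045 CPM. Of the remaining lists, 3 of 5 monocyte and macrophage, 2 of 6 interneuron and 1 of 5 pan-neuronal markers were DOWN. In addition, 2 of 4 fibroblast, 1 of 3 oligodendrocyte precursor and 1 of 3 tested choroid plexus markers were UP. Over all genes tested, 8.28% were DOWN and 8.61% were UP, so a single call in so short a list says little. No oligodendrocyte or endothelial marker was called, and the 5 endothelial markers ranged from 203 to 239 CPM in sum over the 4 samples. The part of these cell types in the levels of the 10 genes was not tested.

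**Figure D5:**
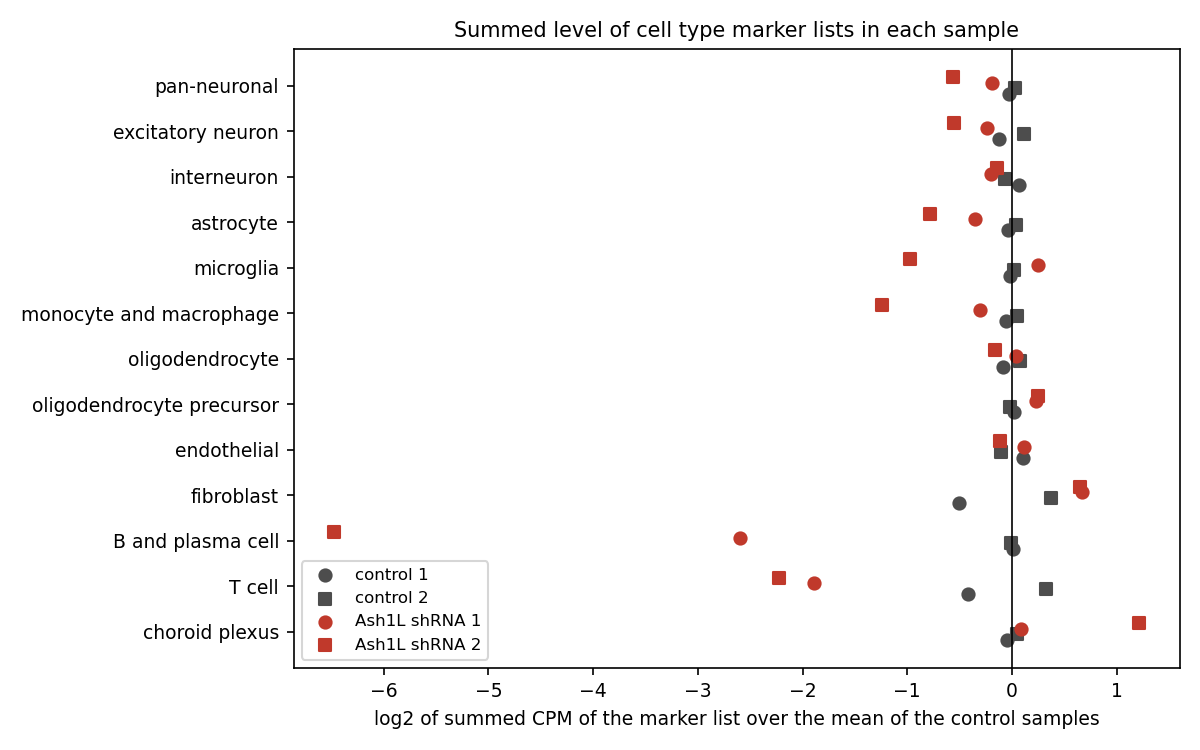
Summed CPM of 13 cell type marker lists in each sample, as log2 over the mean of the control samples. Circles are samples 1 and squares samples 2, grey for control and red for *Ash1L* shRNA. B and plasma cell markers show the widest gap between the groups, at 164 and 163 CPM in controls and 27.0 and 1.83 CPM in *Ash1L* shRNA samples.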

How the data were processed

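RNA-seq counts of PFC were analysed for 4 samples, 2 per group, grouped by their labels. The authors aligned paired-end reads of stranded, rRNA-depleted libraries to mm10 with STAR and deposited raw counts per gene symbol from featureCounts (per the labels also Cutadapt and TopHat2). How the counting treated strand and multiply mapped reads is not given in the sources used here, so overlapping genes may share reads. Where nothing states more, p-values measure only the spread between these samples.

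Counts were filtered with filterByExpr, scaled by TMM and tested across all 16232 genes with edgeR 4.0.16 (R 4.3.3) by the robust quasi-likelihood test, with Benjamini-Hochberg adjustment. CPM are counts over the effective library size, and a pseudocount of 0.1 was used for log2 differences between samples. Standard errors are the absolute log2 fold change over the square root of F. The alternatives were DESeq2 1.42.0, the likelihood ratio test, other scalings and filters, a 1.5-fold limit, the replicate number as a block and each sample left out. The fit was tested on simulated counts.

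The genes and lists were chosen with earlier results of these data known. Named were all 10 genes, the sensors, the paralogs, and the 4 most abundant genes of each other list, of which 1 is not reported here. Genes outside this rule, such as other called genes and markers, were named after their values were seen. Positions, exonic lengths and overlaps come from GENCODE vM21, and *Jchain* was matched by its older symbol.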

Additional observations from a re-analysis of the deposited data

How the results depend on the processing

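The number of ER chaperone genes called UP stayed at 2 or 3 under all settings that kept the 4 samples and the 1.2-fold limit, and was 0 with a 1.5-fold limit. Leaving out 1 sample at a time gave 0 to 3 genes UP, 0 to 1 DOWN, and 0 to 2 with an adjusted p under 0.05. The median log2 fold change of the 10 genes was 0.07 with library size only and ran from 0.00 to 0.12 with samples left out. Over the 7 other lists, 14 genes were UP and 8 DOWN; UP was 5 with a 1.5-fold limit and from 8 to 18 with samples left out, and DOWN was 5 with DESeq2, 3 with a 1.5-fold limit and from 2 to 13 with samples left out. The count in the PERK arm ran from 4 to 6 UP. Over all genes tested, 1 had an adjusted p under 0.05, against 420 with DESeq2, 479 with the likelihood ratio test and 34 without the filter. No scaling moved the median of all genes by more than 0.04.

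Samples with the same replicate number are different pools, and their deviations from the group means correlated at -0.11, which does not pair them. In a fit with a block for the replicate number, 2 of the 10 genes were UP and 0 DOWN. The log2 fold change of *Creld2* was 0.00 with the block, and of opposite sign. In a fit with crossed pairs, added after seeing the data, 2 were UP and *Creld2* was at -0.01. *Xbp1* was at 0.02 with library size only. With samples left out, log2 fold changes that changed sign ran from -0.14 to 0.04 for *Manf*, -0.16 to 0.15 for *Creld2*, -0.07 to 0.17 for *Dnajb9*, -0.12 to 0.06 for *Xbp1*, -0.02 to 0.29 for *Atf6*, -0.01 to 0.45 for *Creld1* and -0.14 to 0.00 for *Herpud2*. The cause was not tested.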

Other observations

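By Euclidean distance of their centred log2 CPM over the 4 samples, the tested genes closest to the mean profile of the 10 ER chaperone genes were *Clca2*, *Zdhhc9*, *Eif4g1*, *Dnajc6* and *Arfip1*, at distances of 0.00775 to 0.0149. That mean profile is nearly flat, at -0.03 and -0.08 in control samples 1 and 2 and 0.02 and 0.09 in *Ash1L* shRNA samples 1 and 2. The 10 genes themselves lie farther from it, from 0.13 for *Dnajc3* to 0.45 for *Sdf2l1*. The genes named before them were picked as the closest of all tested, so this difference says nothing about the list.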
